A study of Homo sapiens with 47 samples.

Results

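The keratin gene clusters are described here as 2 windows of the hg19 genome, 12:52.55-53.35 Mb for the type II keratins and 17:38.80-39.80 Mb for the type I keratins and keratin-associated proteins, in 2 human melanoma cell lines, 451Lu and WM983B. The members were every deposited ATAC-seq peak, H3K27ac peak, H3K9me3 island and interval of a further table that overlapped a window, chosen by position alone. They came to 1489 of 2305813 listed entries. ATAC-seq finds open chromatin through DNA that the transposase Tn5 can reach, H3K27ac is an acetylated histone found at promoters and enhancers in use, and H3K9me3 is a methylated histone of heterochromatin.

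Keratins are the intermediate filament proteins of epithelial cells, and a filament is built from pairs of a type I and a type II chain. KRT8 and KRT18 form the pair of simple epithelia, KRT5 and KRT14 the pair of basal keratinocytes, and KRT1 and KRT10 the pair of differentiating epidermis, while hair keratins and keratin-associated proteins (KRTAP) build the hair shaft. Melanoma cells derive from melanocytes, which are of neural crest origin and not epithelial. In the RefSeq gene order (GRCh38.p14) the keratin genes of chromosome 12 run from KRT80, KRT7, KRT86 and KRT81 to KRT78, KRT8 and KRT18. Since that order is of another build than the peaks, no region below was assigned to a gene, exon or promoter, and the calls at melanocyte and epithelial marker genes were not examined.

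Parental cells of both lines were compared with cells resistant to vemurafenib, an inhibitor of the BRAF kinase. In 451Lu the labels name further lines: AP1, which over-expresses c-JUN and c-FOS, the partners of the factor AP-1, against vector; shp150, which carries an shRNA against p150, against NT control; and shp150_AP1, which has both changes, against vector_NT, which has both controls. The drug response of these 6 engineered and control groups is not in the labels, nor are the dose, the exposure, the number of clones or the day of harvest. ATAC-seq had 2 libraries in each of 10 groups, H3K9me3 had 2 in each of 4 groups of 451Lu, and H3K27ac had 1 peak list in each of the 4 parental and resistant groups. The labels name 2 H3K27ac samples per group, of which the lists of replicate 1 in 451Lu and of replicate 2 in WM983B were used and the others were not analysed here. Nothing says that replicates were separate cultures, so their spread may be technical, and the files measure peaks, so the levels of c-JUN, c-FOS and p150 were not examined.

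The ATAC-seq lists held 42898 to 147988 peaks and did not share a length between lines or experiments. The vector, AP1, NT and shp150 lists had 42898 to 56824 peaks, the other 451Lu lists 79670 to 94550 and the WM983B lists 129339 to 147988. Within the windows the WM983B lists paired by replicate number rather than by drug response. There 26 regions were called in both replicates 2 and in neither replicate 1, and 6 the other way round. By drug response, with regions merged over all 20 ATAC-seq libraries, 4 were called in both resistant libraries only and 5 in both parental libraries only. The same counts by replicate number over the genome are not given here, so whether this pairing is particular to the windows was not tested. The depth behind the peaks is unknown, so a region that was not called may still have been open. The peak score is the authors' own value on a scale not given, and it is used only to describe peaks within a list or to order regions.

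A 7-base motif, TGANTCA, is the site that AP-1 factors are known to bind when its middle base is C or G. RefSeq promoters of GRCh38.p14 were found for 67 of 88 keratin and KRTAP genes, and the 250 bases before the start site were searched, where 1 strand suffices because the motif is its own reverse complement. Promoters were found for only 2 of 7 simple epithelial and 10 of 21 stratified epithelial keratins, against 14 of 17 hair keratins and 33 of 34 KRTAP genes. Those of KRT1, KRT14 and KRT18 were not found and not searched. None of the 34 keratin promoters searched held the motif and 4 of 33 KRTAP promoters did. That made 5.97% of the 67 against 6.57% of all 35116 promoters. The stricter letters TGAGTCA or TGACTCA stood in 2 of the 67 (2.99%), KRTAP3-2 and KRTAP4-6, against 4.20% of all promoters. The 4 matches are shown because they are all that the search found in the gene class of the chromosome 17 window, each on the minus strand with the motif in capitals.
KRTAP3-2, 17:41000058-41000104: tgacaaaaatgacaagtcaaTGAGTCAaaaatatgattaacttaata
KRTAP4-12, 17:41124375-41124421: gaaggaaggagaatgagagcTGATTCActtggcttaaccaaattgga
KRTAP4-5, 17:41150005-41150051: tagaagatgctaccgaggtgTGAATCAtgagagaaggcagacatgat
KRTAP4-6, 17:41140714-41140760: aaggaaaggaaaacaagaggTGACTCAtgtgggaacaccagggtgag
A match describes letters and not a bound site, and these coordinates cannot be set against the hg19 peaks.

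Open chromatin in the keratin windows was about as dense as in the genome in 451Lu and denser in WM983B. Parental 451Lu libraries had 1.52% and 1.54% of the windows in ATAC-seq peaks, against 1.55% and 1.57% of the genome span between the first and last peak of each chromosome. In WM983B the windows had 1.27 to 1.48 times the genome's coverage in all 4 libraries, and in the 16 libraries of 451Lu 0.856 to 1.15 times. The chromosome 12 window had 1.57 to 1.77 times the genome's coverage in WM983B and 0.793 to 1.34 times in 451Lu, and the chromosome 17 window 1.03 to 1.25 and 0.842 to 1.01 times. The lists of the 2 lines do not share a threshold, and its part in this difference was not tested.

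**Figure D1:**
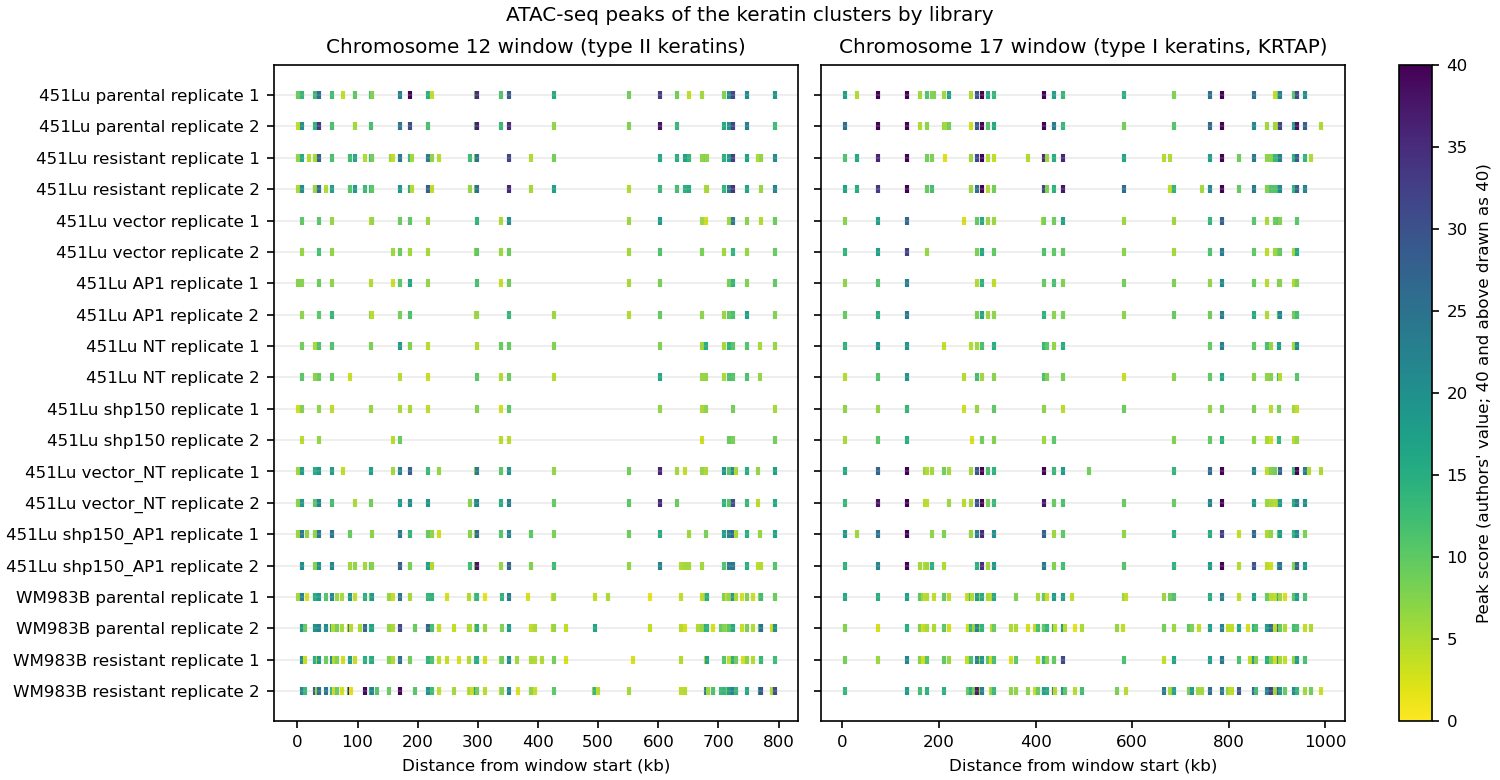
ATAC-seq regions of the windows in each of the 20 libraries, by distance from the window start in kb; each mark is a called region, coloured by the authors' peak score. The 13 regions called in all libraries form columns through every row, and the WM983B rows hold the most marks.

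The 20 libraries together gave 193 separate regions, 109 on chromosome 12 and 84 on chromosome 17. Of these, 13 were called in all 20 libraries (6.74%, against 11.7% of the 208946 regions of the genome), 5 on chromosome 12 and 8 on chromosome 17, and 54 in a single library (28.0%, against 25.5%). WM983B called 173 of the 193 in at least 1 library (89.6%, against 84.9%), and 451Lu parental or resistant cells called 87 (45.1%, against 54.1%). Between these 8 libraries, 33 regions were common to all (17.1%, against 22.1%), 2 were in all 4 of 451Lu and in no WM983B library (1.04%, against 2.25%), and 10 were in all 4 of WM983B and in none of 451Lu (5.18%, against 6.08%). With all 8 lists shortened to their 82621 best peaks, 27 of 118 regions were common to all (22.9%, against 25.1%), 5 were in all 4 of WM983B alone (4.24%, against 3.79%) and 4 in all 4 of 451Lu alone (3.39%, against 6.06%).

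Among the 13 regions called in all 20 lists, the best scored in parental and resistant 451Lu was 17:39584783-39585417, which had scores of 49.9 to 62.5 (median 54.8) there, 8.52 to 54.5 (median 23.3) in the 12 engineered and control libraries and 22.2 to 24.3 in WM983B. The next was 17:38933997-38935148, with 50.4 to 53.9, then 13.6 to 44.2 and 15.2 to 21.3 in the same order. On chromosome 12 the region 12:52900788-52901344 scored 29.0 to 35.7 in parental and resistant 451Lu and 18.0 to 23.4 in WM983B. The region 12:53273173-53274148 scored 31.4 to 34.2 and 14.8 to 23.2. The other 9 had medians of 10.95 to 38.4 in parental and resistant 451Lu. Of the 13, 9 had no H3K27ac peak within 1 kb in any of the 4 H3K27ac libraries and 2 had one in 1 library. The other 2 had one in all 4, 12:52585619-52586609 and 17:38803677-38805413. For these H3K27ac counts no share over the genome is given here.

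Resistant 451Lu cells had more of the keratin windows in listed ATAC-seq peaks than parental cells. The resistant libraries had 33.6 and 32.7 kb in peaks and the parental libraries 27.4 and 27.7 kb, so the groups did not overlap. The means were 33.2 ± 0.632 kb and 27.6 ± 0.238 kb (SD, n = 2), a ratio of 1.20, with p = 0.333 by a two-sided exact permutation test, which is the smallest p that 2 against 2 libraries can give. The ratio was 1.22 on chromosome 12 and 1.18 on chromosome 17. The resistant lists were also longer over the whole genome, at 89922 and 94550 peaks against 82621 and 83203, and the windows' share of the list was 0.0845% and 0.0740% against 0.0714% and 0.0661%, again without overlap. With lists of equal length the difference was 3.64 kb in place of 5.58 kb.

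**Figure D2:**
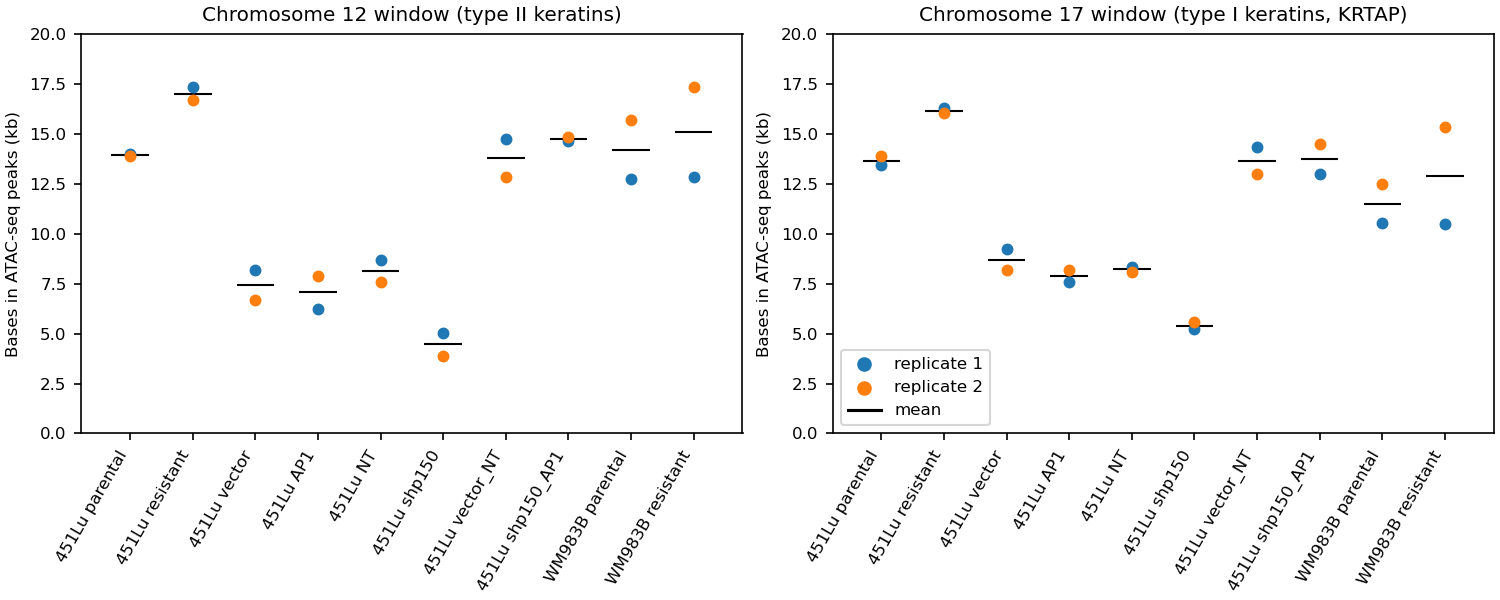
Bases in ATAC-seq peaks in each window in kb, for each library (points, coloured by replicate number) with the mean of the 2 libraries of a group (line). Resistant 451Lu lies above parental 451Lu and shp150 below NT in both windows; in WM983B the replicates 2 lie above the replicates 1.

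A region was called gained where both resistant libraries and neither parental library had a peak, and lost in the reverse case. Of 89 regions of the windows, 15 were gained (16.9%, against 9.79% of all regions) and 5 were lost (5.62%, against 3.96%). All 4 libraries called 42 of the 89, and 62104 of the 114302 regions of the genome. On chromosome 12 there were 10 gained and 2 lost, and on chromosome 17 there were 5 and 3. With lists of equal length 12 were gained and 6 lost, where 8200 and 6581 of all 107687 regions were. The number of window regions at that length is not given here, so these counts have no share to set beside the genome's. The gained regions were short and low in score, with a median length of 403 bp and a median score of 6.49, where the regions called in all 4 had 602 bp and 19.3. Over the whole genome the same medians for gained regions were 406 bp and 7.94.

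The best scored gain was 12:53194562-53194908, which scored 17.3 and 14.3 in resistant cells and was in neither parental list. It was called in 6 of the 20 libraries, with 2.58 and 4.47 in the replicates 2 of WM983B. The gain 12:52637811-52638387 scored 12.4 and 10.6, and 12:52836502-52836904 scored 12.4 and 6.52. On chromosome 17 the best gain was 17:39620906-39621276, with 8.97 and 9.69. The gain 12:52661907-52662370 scored 4.83 and 12.9. None of these 5 was called in the vector, AP1 or shp150 libraries, which are among the shortest lists. Control libraries called 3 of them once each: 12:52637811-52638387 scored 3.29 in NT replicate 2, 12:53194562-53194908 scored 3.69 in vector_NT replicate 1 and 12:52836502-52836904 scored 7.12 in vector_NT replicate 2.

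Most gained regions were open in WM983B whatever its drug response. Of the 15, 9 (60%) were called in all 4 WM983B libraries, where 34.7% of all 11191 gained regions of the genome were. The gain 12:52637811-52638387 scored 19.0 and 27.02 in parental and 17.8 and 40.7 in resistant WM983B, and 12:52661907-52662370 scored 14.4, 26.1, 14.7 and 39.4 in the same order. The lists of the 2 lines differ in length and smallest score, so these scores are not compared with those of 451Lu. Only 12:52740506-52740735 and 17:39066722-39067089 of the 15 were called in no WM983B library. Of the 42 regions called in all 4 parental and resistant 451Lu libraries, 33 were in all 4 of WM983B, a share of 78.6% against 74.3% over the genome.

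The lost regions were fewer, and 3 of the 5 were called in both vector_NT libraries (60%, against 51.8% of all lost regions). The best scored loss was 17:39021092-39021530, with 16.98 and 8.70 in the parental libraries, and the next was 12:52888224-52888670, with 10.96 and 13.3. The latter was called in 15 of 20 libraries, all but both resistant libraries of 451Lu, AP1 replicate 2 and both parental libraries of WM983B. The other 3 were 17:39010592-39010817, 12:53342695-53343218 and 17:38959929-38960249. Of these, 12:53342695-53343218 lay within 1 kb of an H3K27ac peak that resistant 451Lu had (score 6.09) and parental 451Lu lacked. With regions merged over all 20 libraries 4 were lost, and 12:53342695-53343218 was no longer among them. There it was part of a larger region that 15 of the 16 451Lu libraries and all 4 WM983B libraries called, so this loss depends on the merging. Over their own bases, 2 of the 5 were called in all 4 WM983B libraries (40%, against 17.4% of all lost regions).

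**Figure D3:**
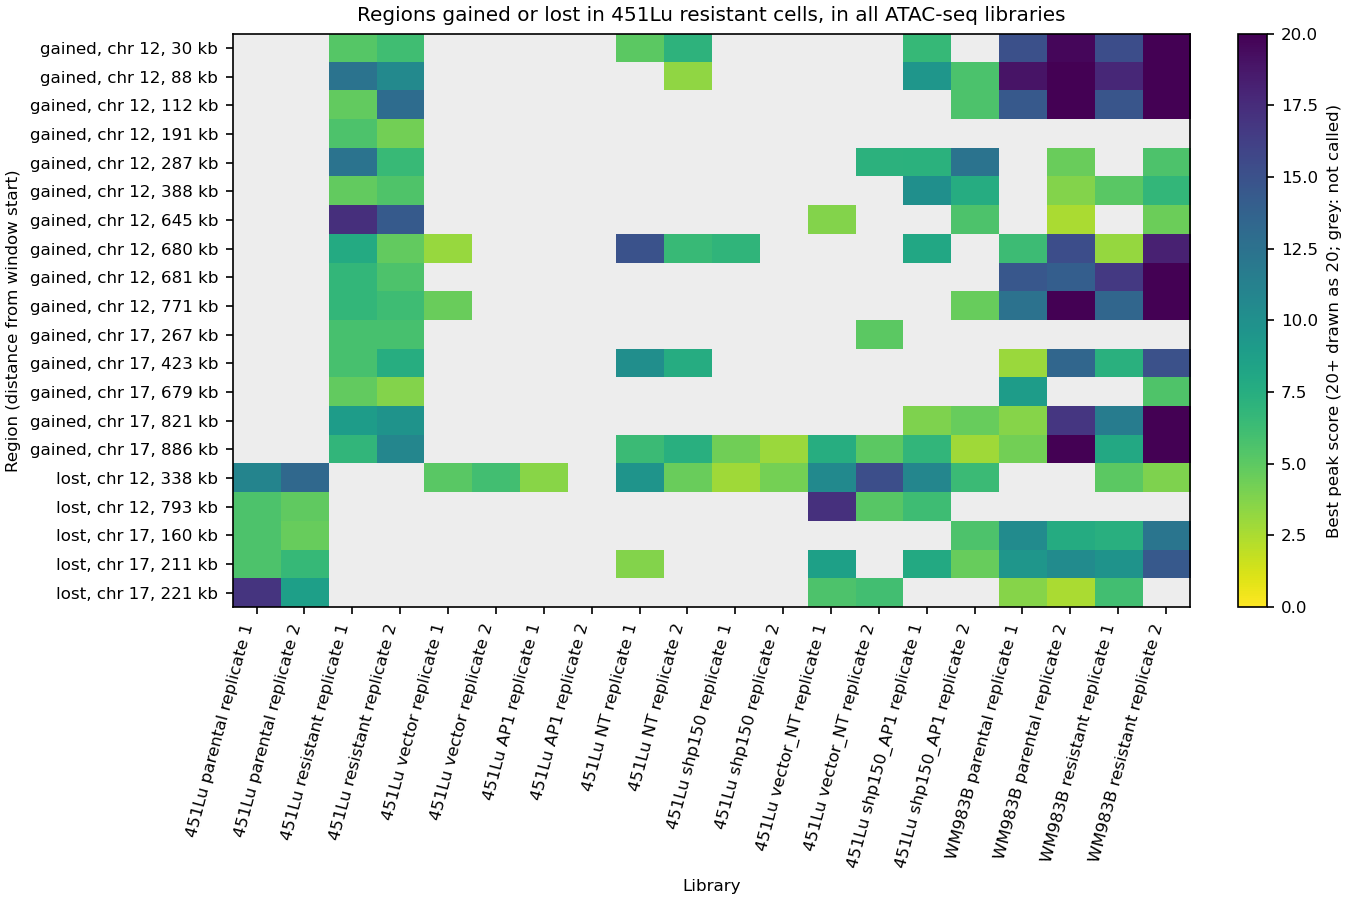
Best peak score over each region gained (15) or lost (5) in resistant against parental 451Lu, in all 20 ATAC-seq libraries; grey cells were not called and rows give the distance from the window start. Gained rows are grey in parental 451Lu by definition, and 9 of them are coloured in all 4 WM983B columns.

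With c-JUN, c-FOS and the p150 shRNA together, coverage of the windows differed by less than the spread between replicates. The shp150_AP1 libraries had 27.6 and 29.3 kb in peaks and the vector_NT libraries 29.1 and 25.8 kb (ratio 1.04, exact permutation p = 0.667). Of 83 regions 6 were gained (7.23%, against 5.19% of all) and 3 lost (3.61%, against 3.26%), shares close to those of the genome. The best gain was 12:52938401-52938724, with scores of 10.1 and 7.63, followed by 12:52637913-52638332 with 9.52 and 5.70 and 12:52674667-52675090 with 7.12 and 7.46. The best loss was 12:53180341-53180659, with 5.55 and 9.32. Resistant and shp150_AP1 cells, whose comparisons share no library, had 3 gained places in common (of 15 and of 6). They were 12:52637796-52638406, 12:52938307-52938724 and 17:39620906-39621350. There was 1 lost place in common (of 5 and of 3, 17:39021092-39021530) and none that changed in opposite directions. No share of such common or opposite changes over the genome is given here, so whether these counts are particular to the windows was not tested. Both shp150_AP1 libraries called 5 of the 15 regions gained in resistant cells (33.3%, against 26.0% over the genome), and both vector_NT libraries 1 of 15 (6.67%, against 5.08%).

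The single changes were measured in shorter lists. AP1 cells had 13.8 and 16.1 kb in peaks and vector cells 17.4 and 14.9 kb, so the groups overlapped (exact permutation p = 0.667). Of 51 regions none was gained (against 1.6% of all) and 1 was lost (1.96%, against 2.86%), 17:39695128-39695553, with scores of 9.34 and 5.92 in the vector libraries.

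Cells with the p150 shRNA alone had less of the windows in peaks. The shp150 libraries had 10.3 and 9.45 kb and the NT libraries 16.99 and 15.7 kb, without overlap (9.86 ± 0.589 against 16.3 ± 0.945 kb, SD, n = 2, ratio 0.604, exact permutation p = 0.333). Of 52 regions none was gained (against 0.747% of all) and 6 were lost (11.5%, against 7.51%), 5 of them on chromosome 12. Their lists were shorter too, with 43913 and 42898 peaks against 55609 and 53419. With lists of equal length the difference was -2.91 kb in place of -6.46 kb. There 2 regions were gained and 2 lost, where 1356 and 2035 of all 59767 regions were, and the number of window regions is not given here. The best scored loss was 12:53297273-53297949, with 10.9 and 11.3 in the NT libraries. In the other libraries this place (12:53297119-53298230) was called in all 18, among them every parental and resistant library of 451Lu, with 16.3 to 22.6. The next losses were 17:39222521-39222927, with 10.1 and 7.64, and 12:52579765-52580025, with 5.06 and 7.11.

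In WM983B the groups overlapped. Resistant libraries had 23.3 and 32.7 kb in peaks and parental libraries 23.3 and 28.1 kb (exact permutation p = 0.667). Of 190 regions 4 were gained (2.11%, against 1.47% of all) and 6 were lost (3.16%, against 1.22%). All 4 libraries called 64 of the 190, and 76508 of the 201296 regions of the genome. The gained and lost regions had median lengths of 200 and 161 bp and median scores of 4.16 and 3.80, where the 64 had 337 bp and 12.8. The best gain was 17:39204745-39205090, with 3.55 and 7.76, and the best loss 12:53222336-53222545, with 3.94 and 6.31. The gain 12:52888340-52888575, with 5.05 and 3.84, lay inside the place that resistant 451Lu had lost, so the call went in opposite directions in the 2 lines there.

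H3K27ac was listed at more places of the windows in resistant than in parental 451Lu. The parental library had 7 peaks and the resistant library 33, and of 35 regions 28 were only in resistant (80%, against 50.3% of all regions), 2 only in parental (5.71%, against 19.9%) and 5 in both. The whole list was longer in resistant cells, at 51710 against 32304 peaks, and lists of equal length gave 6 peaks on chromosome 12 and 19 on chromosome 17 against 2 and 5. In WM983B, 28 peaks in the parental and 27 in the resistant library gave 41 regions, with 14 only in resistant (34.1%, against 21.2%), 14 only in parental (34.1%, against 43.8%) and 13 in both. In lists of equal length WM983B had 17 only in resistant and 7 only in parental, so the even balance did not hold there. The shares of all regions at that length are not given here. With 1 list analysed per group no difference has a replicate check.

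Of the 59 H3K27ac regions, 4 were called in all 4 libraries, and the same share over the genome is not given here. The best by far was 12:53297365-53297879, with a score of 148 in parental and 130 in resistant 451Lu and 158 and 175 in parental and resistant WM983B. It ranked within the best 0.108% to 0.516% of each list and lies at the ATAC-seq place that the shp150 libraries did not call. The region 17:39077874-39078655 scored 18.1 and 44.0 in 451Lu and 35.0 and 30.2 in WM983B. The region 12:52585483-52586112 scored 14.04, 28.0, 26.9 and 33.0 in the same order, and 17:38803641-38804760 scored 6.75, 10.5, 3.92 and 10.7. The score of 26.2 at 17:38874305-38874867 was the second best of parental 451Lu, where resistant 451Lu and parental WM983B had 8.09 and 5.28 and resistant WM983B had no call.

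Resistant 451Lu had its strongest added H3K27ac on chromosome 17. The peak 17:39254962-39255481 scored 43.4, which placed it within the best 4.92% of the list, 17:39523532-39524034 scored 30.8, 17:39204173-39204722 scored 26.7 and 17:39067396-39067855 scored 19.99. None of these 4 was called in another library. Of the regions called in resistant but not parental 451Lu, 6 of 11 on chromosome 12 and 5 of 17 on chromosome 17 were also called in WM983B (54.5% and 29.4%, against 39.3% of all such regions). On chromosome 12, 12:52662321-52662851 scored 11.3 in resistant 451Lu and 9.96 and 11.9 in WM983B, and 12:53267638-53268309 scored 15.5, then 4.66 and 14.8. In parental 451Lu all 7 H3K27ac regions lay within 1 kb of ATAC-seq regions of the same group, where 69.3% of its regions over the genome did, and in resistant 451Lu 19 of 33 did (57.6%, against 64.0%). In parental and resistant WM983B it was 20 of 27 (74.1%, against 69.7%) and 25 of 27 (92.6%, against 85.6%). Of the 15 ATAC-seq regions gained in resistant 451Lu, 5 (33.3%, against 23.5% of all gained regions) lay within 1 kb of a resistant H3K27ac peak. None lay within 1 kb of a parental one, where 3.74% of all gained regions did. Within 1 kb of a resistant peak lay 1 of the 5 lost regions (20%, against 7.91% of all lost regions). Of the 42 regions called in all 4 ATAC-seq libraries 9 did (21.4%, against 35.9%).

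**Figure D4:**
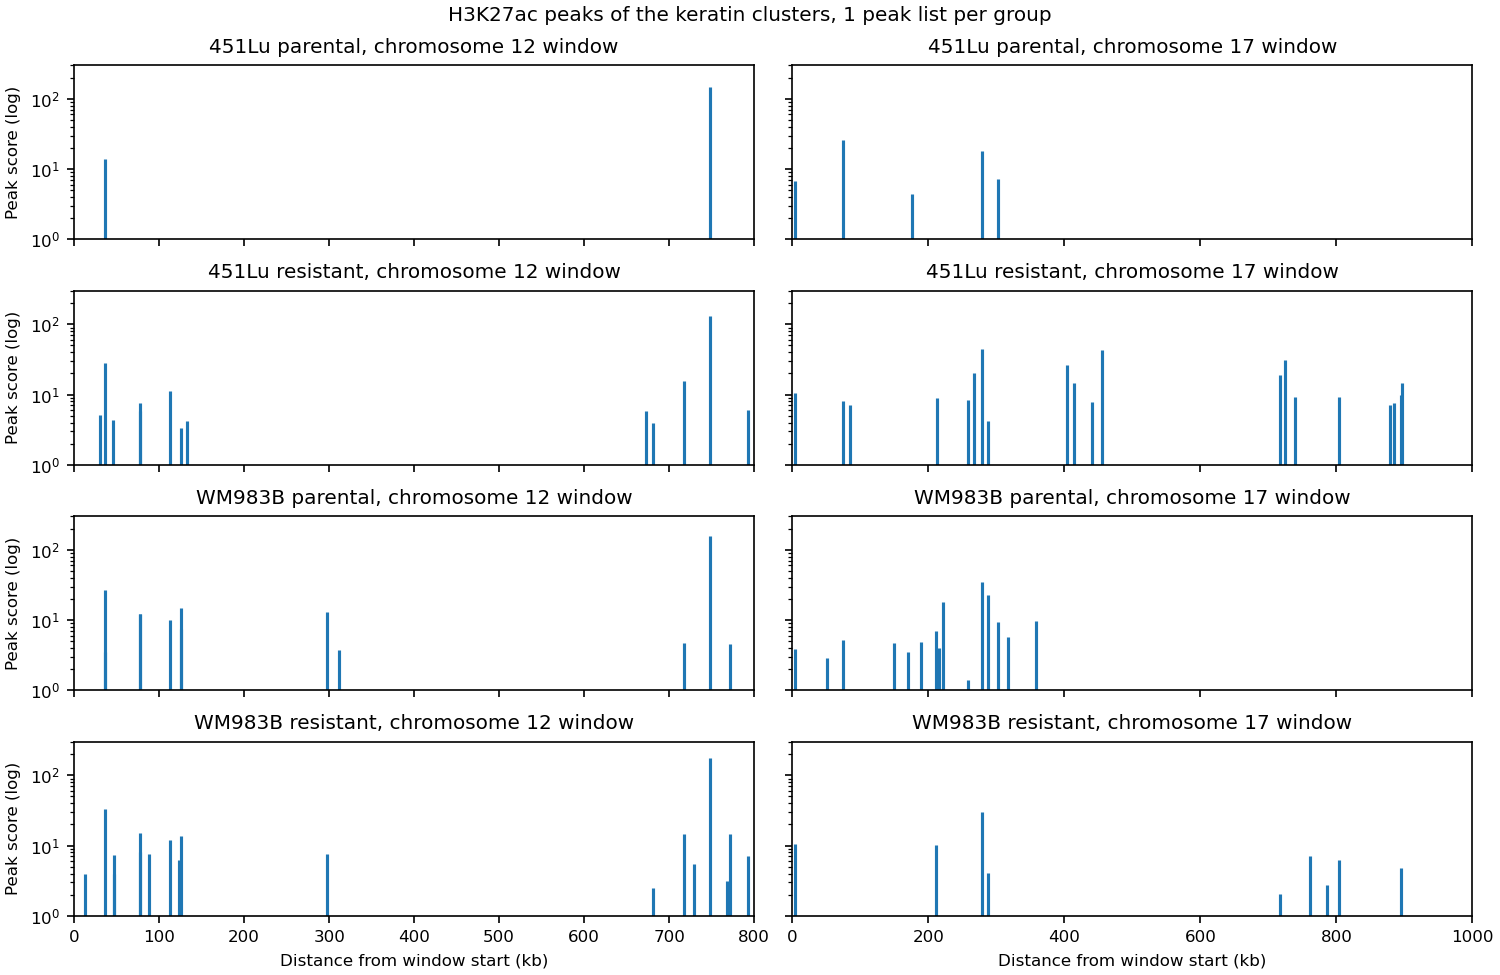
Scores of the H3K27ac regions on a log axis by distance from the window start in kb, with 1 peak list per panel row. The tallest line of each chromosome 12 panel is the region that scored 130 to 175, and the chromosome 17 panel of resistant 451Lu holds lines beyond 400 kb that the parental panel lacks.

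H3K9me3 was sparse in the keratin windows. Islands covered 1.67% to 3.07% of the windows in the 8 libraries, where they covered 9.07% to 13.4% of the genome span. The chromosome 12 window had 0.0386 to 0.151 times the coverage of the span and the chromosome 17 window 0.270 to 0.353 times. Of 23 regions in all libraries, 6 lay on chromosome 12, and 3, all on chromosome 17, were called in all 8 libraries. For the regions called in all 8 libraries, the share over the genome is not given here. The longest of these, 17:38910201-38924400, held 331 to 836 ChIP reads with a fold over input of 2.56 to 4.69. The region 17:39291201-39302400 had folds of 2.70 to 4.25 and 17:39535601-39545800 had 1.90 to 3.85.

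Resistant cells had less of the windows in H3K9me3 islands than parental cells, with 30.0 and 31.0 kb against 46.2 and 42.2 kb (30.5 ± 0.707 and 44.2 ± 2.83 kb, SD, n = 2, ratio 0.690, exact permutation p = 0.333). The shp150_AP1 libraries had 42.0 and 40.8 kb and the vector_NT libraries 53.4 and 55.2 kb (41.4 ± 0.849 and 54.3 ± 1.27 kb, SD, n = 2, ratio 0.762, exact permutation p = 0.333). Neither pair of groups overlapped in the sum of both windows, but in the chromosome 12 window alone shp150_AP1 (11 and 4 kb) overlapped vector_NT (8.6 and 9.8 kb, exact permutation p = 1). The share of the island list that lay in the windows overlapped in both comparisons. Their island lists were shorter as well, at 40010 and 50181 against 61888 and 70879 islands and at 63295 and 48704 against 76857 and 67147. With lists of equal length the difference was -4.1 kb for resistant against parental cells, with overlapping groups, and 0 kb for shp150_AP1 against vector_NT.

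Few single islands changed. In resistant cells 1 of 19 regions was gained (5.26%, against 3.06% of all) and 2 were lost (10.5%, against 17.7%), and in shp150_AP1 cells 1 of 21 was gained (4.76%, against 1.87%) and 3 were lost (14.3%, against 13.8%). The places 12:52993201-52996400 and 17:38929801-38933000 were lost in both, but with lists of equal length neither comparison had a lost region. No share of such common losses over the genome is given here, so whether they are particular to the windows was not tested. The first place had folds of 3.25 and 4.03 in parental and 3.17 and 7.38 in vector_NT cells, and the second place 4.41 and 2.97, then 2.63 and 2.09. The gain of shp150_AP1 was 12:52877001-52880000, with folds of 2.12 and 2.64. The labels name no input sample for shp150_AP1 replicate 1, so the input behind its islands and folds is not known.

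**Figure D5:**
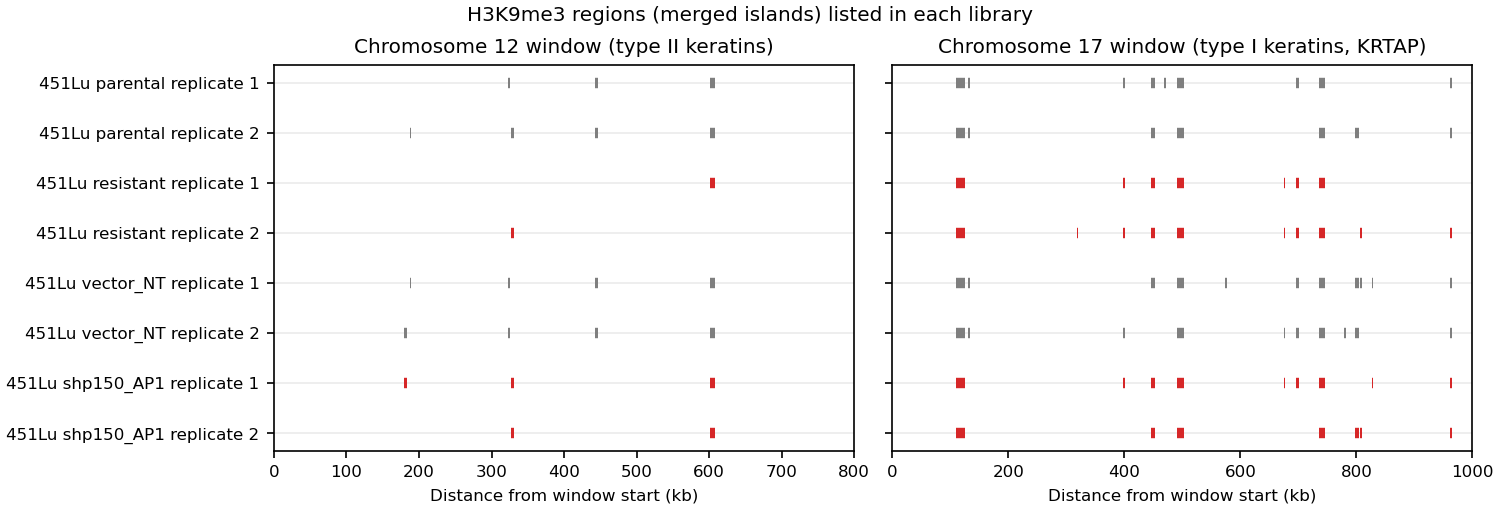
Merged H3K9me3 regions listed in each library, by distance from the window start in kb; each bar spans the whole merged region, red for resistant and shp150_AP1 and grey for their controls. The chromosome 12 window holds few bars, and 3 bars of the chromosome 17 window run through all 8 rows.

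The authors' deposited table of 1848 intervals in 451Lu, named RRR without an explanation of that name, the assay or the direction of its fold, held 4 intervals that overlapped the windows. In the authors' deposited table all 4 had a log2 fold change above 0 with an adjusted p under 0.05, as 33.2% of all 1848 did, and the median fold of the whole table was 0.15 (log2) against 2.28 for the 4. In the authors' deposited table the interval 12:52480001-52720000 had a log2 fold change of 5.92 (SE 0.42, adjusted p = 8.05747e-44) and ranked 28 of 1848. By the authors' deposited table the others were 17:39120001-39260000 with 3.04 (SE 0.60), 17:39640001-39760000 with 1.52 (SE 0.63, adjusted p = 0.0241) and 12:53140001-53340000 with 1.40 (SE 0.30). An interval's end was read as the start of its last 20 kb step, which is an assumption.

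The 4 intervals cover 630 kb, or 35% of the windows. Of the 15 ATAC-seq regions gained in resistant cells 9 lay in them (60%), as did 0 of 5 lost and 23 of 42 called in all 4 libraries (54.8%), against 46 of all 89 (51.7%). The interval 12:52480001-52720000 begins before the window, and only its part inside the window was counted. That part held 3 gained regions. H3K27ac regions in it numbered 1 in parental and 8 in resistant 451Lu and 7 and 10 in parental and resistant WM983B. The interval 17:39120001-39260000 held 1 gained region and 0 against 4 H3K27ac regions in parental against resistant 451Lu, and 1 against 0 in WM983B. The interval 12:53140001-53340000 held 4 gained regions and 1 against 4 H3K27ac regions in 451Lu, and 3 against 6 in WM983B. The interval 17:39640001-39760000 held 1 gained region and 0 against 4 in 451Lu, and 0 against 1 in WM983B. For these H3K27ac counts no share over all intervals is given here. Over the whole genome, intervals with a fold above 0 held 14.4% of gained and 7.002% of lost ATAC-seq regions, and those below 0 held 5.996% and 10.01%. Whether the table was made from the same libraries is not given.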

How the data were processed

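In the submitters' processing notes stand hg19, deepTools, STAR 2.5.3, SICER, MACS2, Picard and Bowtie2, with no role. Which made which file is not given in the sources used here, nor is any Tn5 shift. The score of an ATAC-seq or H3K27ac peak is the authors' own value in the deposited lists. The H3K9me3 lists hold the count of ChIP and of input reads, a p-value, a false discovery rate and the ratio (fold) over input, as deposited by the authors. The interval table holds a mean signal, a log2 fold change, its error, a score (the test statistic) and p-values, as deposited by the authors.

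Starts were written 1-based. Peaks of the 4 libraries of a comparison were merged into regions, on the autosomes and X, and a library's call needed 1 bp or more of a region covered by its peaks. No count model was possible. Covered bases were compared by two-sided exact permutation tests. Alternatives were lists of equal length, 50% of a region covered, a score of at least 5 and a false discovery rate of at most 0.01. Others were regions merged over all 20 ATAC-seq libraries, each library left out, and the replicate number as a block. Named regions are those called in all libraries, shared by 2 comparisons, best scored or longest per comparison, and every interval. The part of that rule on genes was not applied, since the reference used here is of another build. The windows, lists and rules were chosen with earlier results of these data known. Scripts (Python 3.11.15, numpy 2.4.6) were tested on simulated data.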

Additional observations from a re-analysis of the deposited data

Results flagged for a closer look

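H3K27ac in the chromosome 17 window differed in direction between the lines. Resistant minus parental came to 15 peaks in 451Lu and -7 peaks in WM983B, and to 6.43 kb and -2.89 kb in peaks. Each group had 1 list analysed, of replicate 1 in 451Lu and of replicate 2 in WM983B, so the difference between the lines was not tested. The whole lists moved the same ways, from 32304 to 51710 peaks in 451Lu and from 50336 to 36022 in WM983B, and their part in the result was not tested. With lists of equal length the 451Lu counts on chromosome 17 were 19 in resistant and 5 in parental cells, and both WM983B counts were 9.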

How the results depend on the processing

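The direction of the difference in covered bases held under every alternative run for resistant against parental 451Lu, for shp150 against NT and for H3K9me3 in resistant against parental cells. With lists of equal length it came to 0 kb for H3K9me3 in shp150_AP1 against vector_NT. Leaving out 1 library in turn gave 5.13 to 6.02 kb for resistant against parental 451Lu, -7.13 to -5.79 kb for shp150, -0.626 to 2.65 kb for shp150_AP1, -2.46 to 0.091 kb for AP1 and -2.42 to 6.99 kb for WM983B. The reversals came without vector_NT replicate 2 (-0.626), without vector replicate 1 (0.091), and without WM983B resistant replicate 2 (-2.42) or parental replicate 1 (-0.149). For H3K9me3 the ranges were -15.7 to -11.7 and -13.8 to -12.0 kb.

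Counts grow when a library is left out, since fewer libraries must then share a call. ATAC-seq gained and lost regions became 16 to 25 and 6 to 8 (resistant 451Lu), 8 to 12 and 4 to 9 (shp150_AP1), 1 to 2 and 2 to 6 (AP1), 0 to 3 and 9 to 14 (shp150), and 6 to 25 and 13 to 20 (WM983B). H3K9me3 gave 1 to 3 and 3 to 5 in resistant and 1 to 2 and 4 to 5 in shp150_AP1 cells. The highest values of at least 1 count came without resistant replicate 2, shp150_AP1 replicate 2, vector_NT replicate 2, AP1 replicate 1, either vector library, shp150 replicate 1, WM983B resistant replicate 1 and either WM983B parental library in ATAC-seq. In H3K9me3 they came without resistant replicate 1, either parental library, shp150_AP1 replicate 2 and either vector_NT library.

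Lists of equal length gave 2 gained in AP1, 2 gained and 2 lost in shp150, 2 gained in WM983B, 2 gained and 0 lost for H3K9me3 in resistant cells, 0 lost in shp150_AP1 cells and 7 H3K27ac regions only in parental WM983B against 17 only in resistant. A score of at least 5 gave 2 lost in AP1, 2 gained and 1 lost in WM983B, and 1 and 7 H3K27ac regions only in parental 451Lu and WM983B. Asking for 50% of a region gave 2 lost in AP1, and for H3K9me3 2 gained and 4 lost in resistant and 0 gained in shp150_AP1 cells. The cause of these changes was not tested. With the replicate number as a block the difference for resistant 451Lu was 5.58 kb (exact sign-flip permutation p = 0.5, the smallest that 2 pairs can give), and the block changed no direction. The labels do not say that a number marks a shared batch, and within the windows the numbers and not the drug response paired the WM983B lists. Depth is not given, so a missing call is no sign of closed chromatin.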
